A study of Mus musculus with 40 samples.

Results

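The enzymes of fatty acid beta-oxidation were examined in the gastrocnemius and the quadriceps of mice on a high fat diet (HFD) or a low fat diet (LFD). The genes were listed by name for their role in the pathway, with earlier results of these data known, and the list holds 36 genes of 16475 on the array: 3 acyl-CoA synthetases, 6 genes of the carnitine shuttle, 7 acyl-CoA dehydrogenases, 3 genes of electron transfer, 4 of the hydratase to thiolase steps, 4 auxiliary enzymes for unsaturated fatty acids, 6 peroxisomal genes and 3 thioesterases. All 36 had a probe set, and 32 passed the filter on low signals, a mean signal over 20 across all arrays. The other 4, *Cpt1a* (mean signal 19.0), *Acad10* (5.51), *Decr2* (6.67) and *Acot1* (9.63), were not tested.

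RNA was measured on 40 Affymetrix arrays, 1 for each of both muscles of 20 male mice, with 10 HFD and 10 LFD mice. All mice were of 1 inbred strain (C56BL/6J in the labels, C57BL/6J in the methods of the study) and 20 weeks old. They shared a 3-week run-in on the LFD from 9 weeks of age, were then fed an HFD or an LFD for 8 weeks, both with palm oil as the fat, and were fasted before dissection. Each value is an array signal on a linear scale and can be set against the same gene on other arrays, though not against another gene. Precision is limited by how many arrays there are. All 10 skeletal muscle markers had a mean signal over 20 in each group (lowest and highest summed signal, each to 4 digits: 174400 and 182000 in HFD and 164200 and 178700 in LFD gastrocnemius, 165000 and 179200 in HFD and 167100 and 178500 in LFD quadriceps), and none of the 5 liver markers had a mean signal over 20. Quadriceps arrays differed in 2 other ways. The summed signal of 7 neutrophil markers was over 100 on 6 HFD and 4 LFD quadriceps arrays and on no gastrocnemius array, and the summed signal of 8 slow fiber markers was under 1000 on 2 HFD and 2 LFD quadriceps arrays. Both are given again beside the results of the quadriceps. In whole muscle, fewer cells of a type and less RNA per cell cannot be told apart.

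Beta-oxidation shortens a fatty acid by a pair of carbons in each round. The fatty acid is bound to coenzyme A by an acyl-CoA synthetase, crosses the inner mitochondrial membrane as a carnitine ester, and then passes a dehydrogenase, a hydratase, a second dehydrogenase and a thiolase, while electrons of the first step reach the respiratory chain through the electron transfer flavoprotein. Unsaturated fatty acids need extra isomerases and a reductase, and very long chains are shortened first in peroxisomes. Skeletal muscle uses the pathway during fasting and endurance work, and many of its genes are known targets of the PPAR nuclear receptors.

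Promoters are shown for 3 members that were higher on the HFD in the gastrocnemius, with sequences from RefSeq (GRCm38.p6), which held a promoter for 29 of the 36 genes. *Hadha* and *Hadhb* encode both subunits of the mitochondrial trifunctional protein and lie head to head on chromosome 5, with 272 bases between their first bases, so that 228 of the 250 bases before each gene are common to both. The window of *Hadha* is chr5:30154981-30155230 (minus strand). Capitals mark a GC box (GGGCGG on either strand), a word found in 32.7% of all windows of this length. It was in at least 1 window of 19 of the 29 genes. Some genes have more than 1 window, so that a share of windows and a count of genes are unlike units. The windows of *Acadm* (chr3:153944644-153944893, minus strand) and *Acadvl* (chr11:70015429-70015678, minus strand) are shown because each holds AGGTCA on either strand, the half-site of nuclear receptors, which capitals mark there.
Hadha: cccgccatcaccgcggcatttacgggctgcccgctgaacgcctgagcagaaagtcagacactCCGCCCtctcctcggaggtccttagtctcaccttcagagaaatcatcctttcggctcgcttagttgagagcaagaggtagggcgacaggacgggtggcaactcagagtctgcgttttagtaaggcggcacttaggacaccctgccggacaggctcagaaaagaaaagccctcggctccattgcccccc
Acadm: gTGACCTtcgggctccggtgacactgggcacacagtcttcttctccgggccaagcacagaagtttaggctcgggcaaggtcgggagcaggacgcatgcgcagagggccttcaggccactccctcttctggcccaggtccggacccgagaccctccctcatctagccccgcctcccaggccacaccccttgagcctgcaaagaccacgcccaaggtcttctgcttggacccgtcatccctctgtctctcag
Acadvl: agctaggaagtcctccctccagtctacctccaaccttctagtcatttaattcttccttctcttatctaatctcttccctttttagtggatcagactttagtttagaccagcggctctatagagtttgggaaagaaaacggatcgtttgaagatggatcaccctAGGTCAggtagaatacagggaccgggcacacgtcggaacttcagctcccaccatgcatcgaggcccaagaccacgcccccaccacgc
The half-site was found in at least 1 window of 4 of the 29 genes (*Acadm*, *Acadvl*, *Acsl6* and *Cpt1a*) and in 14% of all 32851 promoters, again unlike units. Among the members higher on the HFD in the gastrocnemius that had a window, only *Acadm* and *Acadvl* held it. *Acsl6* was not called there, and *Cpt1a* was not tested. A direct repeat of the half-site with 1 base between (AGGTCANAGGTCA, either strand) was in 0.0335% of all promoters and in none of the 29. A match of letters is a description of the sequence.

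The diet comparison asked whether the HFD changed the expression of these enzymes in the gastrocnemius. Of the 32 tested members, 14 were higher and 0 were lower in HFD than in LFD gastrocnemius at an FDR under 0.05 (limma, Benjamini-Hochberg over all tested genes), where the same test called 0.679% of all 6479 tested genes and 0.463% as higher. The 14 members were 43.8% of the tested members and 46.7% of the 30 genes called higher. They came from all role groups: 1 synthetase, 1 gene of the carnitine shuttle, 3 dehydrogenases, 1 electron transfer gene, 2 genes of the hydratase to thiolase steps, all 4 auxiliary enzymes, 1 peroxisomal gene and 1 thioesterase. The changes were small, between 0.21 (*Eci2*) and 0.45 (*Ech1*) on the log2 scale. Over all 32 members the median log2 fold change was 0.20, with 27 above 0, against a median of -0.016 over all tested genes. *Acadl*, *Acadm*, *Acaa2*, *Decr1* and *Hsdl2* did not overlap between the 10 HFD and the 10 LFD arrays, and these were all 5 genes with that pattern among the tested genes (0.0772%). Under leaving out each of the 20 mice in turn, 12 of the 14 calls passed every time. *Acsl1* and *Hadha* did not, as given beside their values. In 6 of the 9 overlapping members, the overlap came from 1 LFD array, that of mouse 148 each time.

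**Figure D1:**
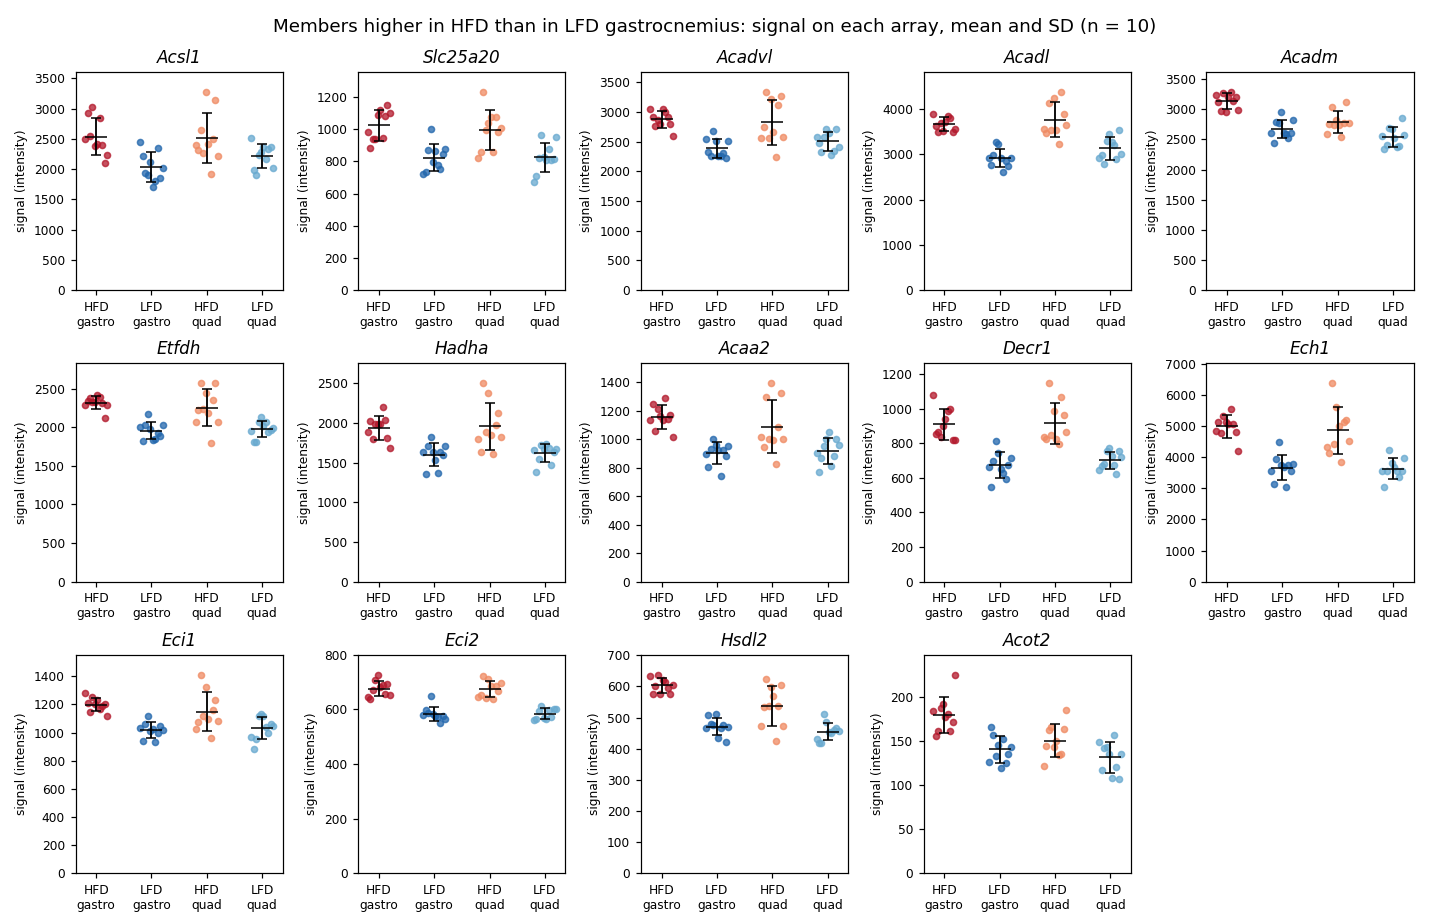
Signal intensity (vertical axis, from 0) of the 14 members higher in HFD than in LFD gastrocnemius, on each of the 10 arrays of the 4 groups, with the mean and SD in black. In the gastrocnemius the HFD arrays of Acadl, Acadm, Acaa2, Decr1 and Hsdl2 all lie above the LFD arrays. For Acadl, Acadm, Decr1, Ech1 and Hsdl2 the HFD quadriceps arrays span a wider range than the HFD gastrocnemius arrays. For Eci2 and Acot2 they do not.

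The 2 largest called changes were in auxiliary enzymes, which prepare double bonds for the main pathway. *Ech1*, a dienoyl-CoA isomerase, had signals of 4198, 5086 and 5560.3 (lowest, median and highest of 10) in HFD gastrocnemius and 3054, 3717 and 4493 in LFD gastrocnemius. Only the lowest HFD array, of mouse 158, lay among the LFD values. The log2 fold change was 0.45 ± 0.072 (SE, limma FDR 0.000236), a 1.365-fold difference. *Decr1*, the mitochondrial 2,4-dienoyl-CoA reductase, had signals of 818, 884 and 1080.1 in HFD and 549, 668 and 811 in LFD gastrocnemius. The groups did not overlap, with a log2 fold change of 0.44 ± 0.067 (SE, limma FDR 0.000142). *Ech1* and *Decr1* were the 2 members with a fold change over 1.3, a criterion met by 0.216% of all tested genes.

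The enoyl-CoA isomerases *Eci1* and *Eci2*, which move a double bond into the position the pathway can use, had smaller changes with a small spread. *Eci2* had signals of 639, 677 and 728 in HFD and 551, 579 and 649 in LFD gastrocnemius. The single LFD array above the lowest HFD value was that of mouse 148, and the log2 fold change was 0.21 ± 0.032 (SE, limma FDR 0.000142). *Eci1* had signals of 1118, 1201 and 1281 in HFD and 933, 1019 and 1119 in LFD gastrocnemius. Here too only the LFD array of mouse 148 was above the lowest HFD array, and the log2 fold change was 0.24 ± 0.052 (SE, limma FDR 0.0144).

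Among the acyl-CoA dehydrogenases, which take the first step for different chain lengths, the enzymes for very long, long and medium chains were higher on the HFD. *Acadl*, the long-chain enzyme, had signals of 3497, 3667 and 3891 in HFD and 2614, 2911 and 3273 in LFD gastrocnemius. Every HFD array was above every LFD array, and the log2 fold change was 0.33 ± 0.051 (SE, limma FDR 0.000142). *Acadm*, the medium-chain enzyme, had signals of 2951, 3175 and 3292 in HFD and 2443, 2609 and 2950.4 in LFD gastrocnemius, with the highest LFD array (mouse 153) just below the lowest HFD array (mouse 149). Its log2 fold change was 0.23 ± 0.041 (SE, limma FDR 0.000826). *Acadvl*, the very long-chain enzyme, had signals of 2590.4, 2886 and 3055 in HFD and 2229.6, 2320.3 and 2682 in LFD gastrocnemius, overlapping through 1 array of each group, with a log2 fold change of 0.27 ± 0.056 (SE, limma FDR 0.0104). *Acads*, the short-chain enzyme, had the widest spread of all members, with signals of 144, 178 and 409 in HFD and 101, 159 and 288 in LFD gastrocnemius. Its log2 fold change of 0.35 ± 0.23 (SE, limma FDR 0.745) was not called, and the interval from -0.12 to 0.81 covers changes larger than any called here. *Acad9* and *Acad11*, also of this family, had log2 fold changes of 0.037 and 0.066, neither called.

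*Etfdh* passes the electrons of the dehydrogenases to ubiquinone. Its signals were 2121, 2330.4 and 2419 in HFD and 1829, 1954 and 2176 in LFD gastrocnemius, with a log2 fold change of 0.25 ± 0.048 (SE, limma FDR 0.00336). The groups overlapped through the lowest HFD array, of mouse 157, and the highest LFD array, of mouse 148. *Etfa* and *Etfb*, the subunits of the flavoprotein that feeds it, had log2 fold changes of 0.17 and 0.17 in the same direction, which did not pass the test (limma FDR 0.150 and 0.272).

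Of the enzymes for the later steps, *Acaa2*, the mitochondrial thiolase, had signals of 1017, 1152 and 1293 in HFD and 739.6, 924 and 1004 in LFD gastrocnemius. The groups did not overlap, and the log2 fold change was 0.36 ± 0.073 (SE, limma FDR 0.00617). *Hadha*, the subunit of the trifunctional protein that carries the hydratase and the dehydrogenase of long chains, had signals of 1679, 1983 and 2206 in HFD and 1360.5, 1633 and 1818 in LFD gastrocnemius. These overlapped through 3 arrays of each group, and the log2 fold change was 0.28 ± 0.066 (SE, limma FDR 0.0298). The call was lost on leaving out 7 of the 20 mice in turn, with a limma FDR of up to 0.0970, and with no filter on low signals (limma FDR 0.0715). Its divergent neighbor *Hadhb*, the thiolase subunit, averaged 6107 ± 429.8 in HFD and 5400.1 ± 631 in LFD gastrocnemius (SD, n = 10 each), with a log2 fold change of 0.18 ± 0.059 (SE, limma FDR 0.189), which did not pass. *Hadh*, the dehydrogenase for medium and short chains, had a log2 fold change of 0.17 ± 0.049 (SE, limma FDR 0.132), also not called.

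At the entry to the pathway, *Slc25a20*, which exchanges acylcarnitine for carnitine across the inner membrane, had signals of 885, 1036 and 1154 in HFD and 719.5, 822 and 1001 in LFD gastrocnemius. The highest LFD array, of mouse 148, was above 5 of the 10 HFD arrays, and the log2 fold change was 0.31 ± 0.070 (SE, limma FDR 0.0159). *Acsl1*, a long-chain acyl-CoA synthetase, had signals of 2103, 2457 and 3021 in HFD and 1699.7, 1972 and 2450.4 in LFD gastrocnemius, with 4 LFD arrays above the lowest HFD array. Its log2 fold change was 0.32 ± 0.079 (SE, limma FDR 0.0432). The call was lost on leaving out 14 of the 20 mice in turn (limma FDR up to 0.125). It was also lost with the mouse as a random block (limma FDR 0.0550) and with no filter on low signals (limma FDR 0.0990). The carnitine palmitoyltransferases were not called. *Cpt1b*, the muscle enzyme on the outer membrane and the step that controls entry, averaged 1406 ± 207 in HFD and 1236 ± 155 in LFD gastrocnemius, with a log2 fold change of 0.18 ± 0.093 (SE, limma FDR 0.579). *Cpt2*, its partner on the inner membrane, averaged 936 ± 96.1 in HFD and 778 ± 82.5 in LFD gastrocnemius, with a log2 fold change of 0.27 ± 0.074 (SE, limma FDR 0.101). *Crat*, which makes acetylcarnitine, and *Mlycd*, which removes the inhibitor malonyl-CoA, had log2 fold changes of 0.023 and 0.14. The synthetases *Acsl5* and *Acsl6* had values of -0.035 and -0.071. None of these 6 passed the test.

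Peroxisomal members did not share 1 direction. *Hsdl2*, a short-chain dehydrogenase found in peroxisomes, had the smallest FDR of all members, with signals of 574, 603 and 638 in HFD and 423, 472 and 509.8 in LFD gastrocnemius. All HFD arrays were above all LFD arrays, and the log2 fold change was 0.36 ± 0.052 (SE, limma FDR 9.46e-05). *Ehhadh*, the bifunctional enzyme of the peroxisome, averaged 45.4 ± 9.79 in HFD and 55.2 ± 8.73 in LFD gastrocnemius, with a log2 fold change of -0.30 ± 0.11 (SE, limma FDR 0.268). *Acaa1a*, the peroxisomal thiolase, had a log2 fold change of -0.070, *Pex11a*, which acts in peroxisome division, of 0.14, and *Hsd17b4*, the other bifunctional enzyme, of 0.15. None of these 4 was called.

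The thioesterase *Acot2*, which releases fatty acids from coenzyme A inside mitochondria, had signals of 155, 178 and 225 in HFD and 119.5, 139 and 166 in LFD gastrocnemius. The groups overlapped, with 2 LFD arrays above the lowest HFD array and a log2 fold change of 0.35 ± 0.077 (SE, limma FDR 0.0129). *Acot1* is a close relative of *Acot2* in the same gene cluster, and how the array separates such relatives was not tested. *Acot13* had a log2 fold change of -0.038, not called.

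In the quadriceps 5 of the 32 members were higher and 0 were lower on the HFD at an FDR under 0.05 (limma), where 0.185% of all tested genes were called, 0.139% as higher and 0.0463% as lower. These 5, *Eci2*, *Decr1*, *Ech1*, *Acadl* and *Hsdl2*, were 55.6% of the 9 genes called higher in this muscle, 100% of the quadriceps calls among members and 35.7% of the gastrocnemius calls, since all 5 had also been called there, on other arrays of the same mice. The median log2 fold change of the members was 0.16, with 28 of 32 above 0, against -0.011 over all tested genes. *Decr1* and *Eci2* did not overlap between the groups and were both genes with that pattern among all tested (0.0309%). The spread was wider in HFD quadriceps: the median coefficient of variation of the tested members was 12.3% there and 8.89% in LFD quadriceps, against 8.08% in HFD and 9.59% in LFD gastrocnemius.

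*Eci2* had signals of 637, 678 and 723 in HFD and 560.1, 583 and 613 in LFD quadriceps, with a log2 fold change of 0.21 ± 0.032 (SE, limma FDR 0.000783). *Decr1* had signals of 798, 856 and 1148 in HFD and 625, 699.9 and 772 in LFD quadriceps, with a log2 fold change of 0.38 ± 0.067 (SE, limma FDR 0.00265). For both genes every HFD array was above every LFD array. *Ech1* had signals of 3854, 4770.0 and 6389.9 in HFD and 3034, 3568 and 4237 in LFD quadriceps and was the 1 member with a fold change over 1.3 (0.0617% of all tested genes), at a log2 fold change of 0.41 ± 0.072 (SE, limma FDR 0.00265). *Acadl* had signals of 3233, 3600.4 and 4383 in HFD and 2775, 3106 and 3536 in LFD quadriceps, with a log2 fold change of 0.26 ± 0.051 (SE, limma FDR 0.00829). Both overlapped, with 2 HFD arrays of *Ech1* and 4 of *Acadl* below the highest LFD array, and the lowest was that of mouse 151 in both. *Hsdl2* had signals of 425, 538 and 625 in HFD and 418, 455 and 510.3 in LFD quadriceps, with the HFD arrays of mice 143, 151 and 158 inside the LFD range. Its log2 fold change was 0.23 ± 0.052 (SE, limma FDR 0.0372). The call was lost on leaving out 14 of the 20 mice in turn (limma FDR up to 0.138), with no filter on low signals and with array weights. When the spread was taken from the 20 quadriceps arrays alone, the calls of *Eci2* and *Decr1* passed, and those of *Acadl* (limma FDR 0.158), *Ech1* (0.0716) and *Hsdl2* (0.358) did not.

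The other 9 members of the gastrocnemius calls had quadriceps log2 fold changes from 0.14 (*Acadm*) to 0.27 (*Slc25a20*), all positive. *Hadha* averaged 1957 ± 296 in HFD and 1620.1 ± 116 in LFD quadriceps, and *Acaa2* 1087 ± 186 in HFD and 919.6 ± 90.7 in LFD quadriceps (SD, n = 10 each), with a larger SD on the HFD in both cases. *Cpt2* had the largest log2 fold change of the members not called in this muscle, 0.30 ± 0.074 (SE, limma FDR 0.0774). *Acad9* had the value -0.23 ± 0.081 (SE, limma FDR 0.560), negative and not called. The test of whether the diet effect differed between the muscles called 0 of 32 members and 0 of 6479 genes (limma, 118 genes or 1.82% at an unadjusted p under 0.05). The 95% intervals of that difference on the log2 scale ran from -0.088 to 0.097 for *Eci2*, from -0.024 to 0.27 for *Hsdl2* and from -0.063 to 0.38 for *Acot2*.

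**Figure D2:**
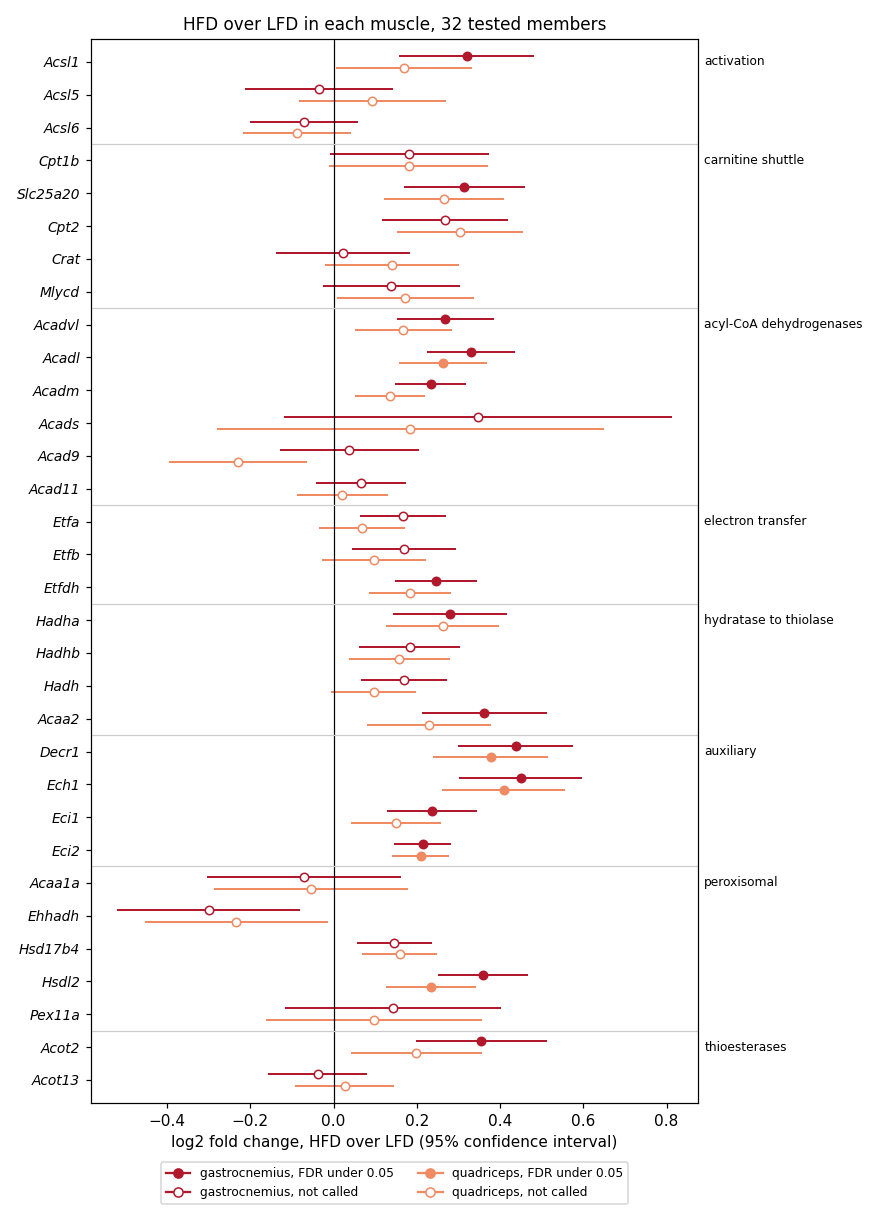
Log2 fold change, HFD over LFD (horizontal axis), with the 95% confidence interval for the 32 tested members by role, in the gastrocnemius (upper point of each pair) and the quadriceps (lower point); filled points have an FDR under 0.05. The 14 filled gastrocnemius points and the 5 filled quadriceps points all lie right of 0, and the pairs of most members lie close together.

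The signals of both muscles were also averaged within each mouse and compared between 10 HFD and 10 LFD mice, a comparison added after the data were seen. It called 16 members as higher and 0 as lower, among 27 genes called higher in all (0.417% of tested genes; limma). They were the 14 members called in the gastrocnemius, *Cpt2* (log2 fold change 0.29, limma FDR 0.00805) and *Hsd17b4* (0.15, limma FDR 0.0321). Each mean holds the same gastrocnemius array, so that finding the 14 again is no separate check. The means also hold the quadriceps arrays with high neutrophil markers. They rest on the mouse numbers in the labels, which were not checked in another way for the HFD mice.

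Single mice differed in how far the members moved together. For each array, the median over the 32 members of the log2 signal minus the LFD mean of that muscle was taken as a description. It was 0.14 to 0.26 in HFD and -0.12 to 0.15 in LFD gastrocnemius, and -0.0038 to 0.31 in HFD and -0.11 to 0.075 in LFD quadriceps. In the gastrocnemius the groups met only at mouse 158 of the HFD (0.14) and mouse 148 of the LFD (0.15), while in the quadriceps they overlapped. The quadriceps of HFD mouse 151 was among the 3 lowest HFD arrays for all 14 members called in the gastrocnemius, and the gastrocnemius of the same mouse among the 3 highest for 9 of them. In HFD mouse 145 it was the reverse, with the quadriceps among the 3 highest for 13 of the 14 and the gastrocnemius among the 3 lowest for 9. The labels give both arrays to 1 animal by its number, but over all tested genes the deviations of both muscles correlated at a median of -0.069 in HFD mice and 0.39 in LFD mice, and the HFD numbers were not checked in another way.

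The quadriceps arrays with the lowest member signals also had low slow fiber markers, on both diets. The 4 HFD quadriceps arrays with the lowest summed signal of slow fiber markers (mice 151, 143, 158 and 144, at 373, 374, 1272 and 2217) were the 4 with the lowest member medians (-0.0038, 0.048, 0.064 and 0.090). Neutrophil markers were high on the other HFD quadriceps arrays. These 6, with a neutrophil marker sum over 100 (1180.0 to 12730.0), had member medians of 0.12 to 0.31. The highest was in mouse 145, which also had the highest neutrophil sum. Within the 6, sums and medians did not follow the same order. Mouse 146, at a sum of 2387, had the lowest median (0.12), and mouse 152, at the lowest sum, had 0.20. In LFD quadriceps the highest median (0.075, mouse 159) was on an array with a neutrophil sum of 31.3 and a slow fiber sum of 5310. The LFD quadriceps arrays of mice 142, 156 and 147 had the lowest slow fiber sums (454.7, 470.5 and 1013). Their medians were also the lowest of that group (-0.109, -0.0589 and -0.0473), at neutrophil sums of 36.5, 39.3 and 35.9. Mouse 141 came next (-0.0431), at a slow fiber sum of 5254. Over all arrays the 7 neutrophil markers, of which 5 had a mean signal over 20 and none was at 0, summed to 32.6 to 12730.0 in HFD and 31.3 to 2552 in LFD quadriceps, and to 34.8 to 40.7 in HFD and 32.9 to 41.1 in LFD gastrocnemius. The part of either marker group in the quadriceps result was not tested, and in the HFD quadriceps both cannot be told apart. Without the quadriceps arrays over a neutrophil sum of 100, which leaves 4 HFD and 6 LFD arrays, the 4 HFD arrays being those with the lowest slow fiber sums, 0 members and 0 of all tested genes were called in the quadriceps, the members' median log2 fold change was 0.076 and the values of the 5 members were 0.11 to 0.29. Without the arrays under a slow fiber sum of 1000, 6 members were called, where 0.247% of all tested genes were, and the median was 0.18. Neither choice left out an array of the gastrocnemius, where the neutrophil sum was at most 41.1. The fold changes there could not move, only the spread shared with the quadriceps. The counts of 15 and 14 members called there are therefore no check of the gastrocnemius result. Slow fiber sums there were 7594 to 12830.0 in HFD and 6132 to 13790.0 in LFD mice.

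**Figure D3:**
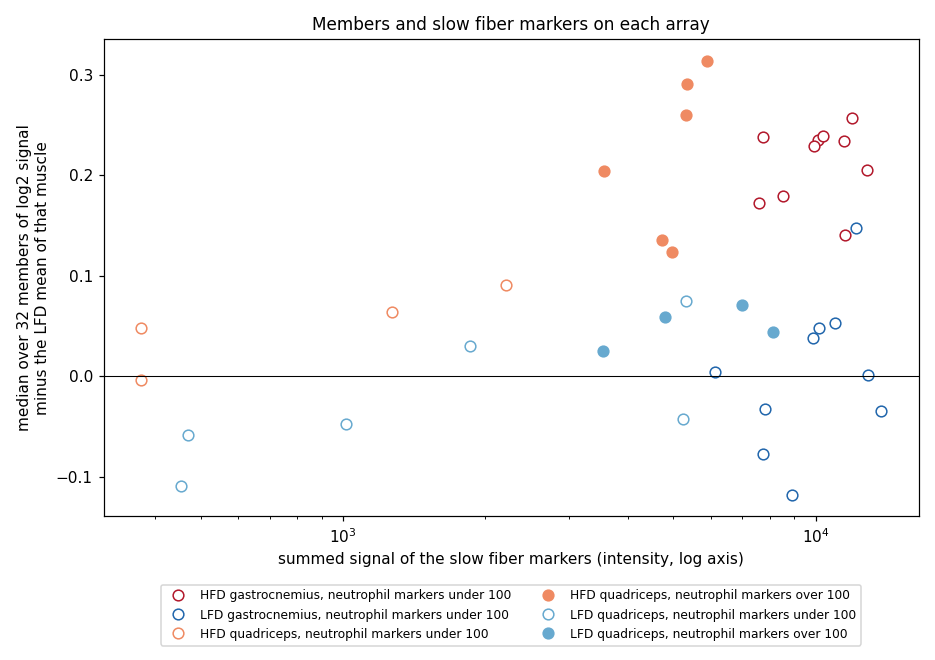
Median over the 32 members of log2 signal minus the LFD mean of that muscle (vertical axis) against the summed signal of 8 slow fiber markers (horizontal log axis), 1 point per array; filled points have a neutrophil marker sum over 100. The 4 HFD quadriceps arrays at the left (373 to 2217) have the lowest medians of their group, and the HFD gastrocnemius arrays lie between 0.14 and 0.26 at high slow fiber sums.

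The study also asked how the muscles differ. In HFD mice 4 of the 32 members differed between the gastrocnemius and the quadriceps at an FDR under 0.05 (limma), where 6.62% of all tested genes were called (3.32% higher and 3.3% lower in the gastrocnemius). In LFD mice 2 of the 32 differed, where 5.22% were called (2.69% higher and 2.53% lower). The members' median log2 fold change, gastrocnemius over quadriceps, was 0.026 in HFD and -0.024 in LFD mice, against -0.016 in HFD and -0.010 in LFD mice over all tested genes. *Acsl6*, an acyl-CoA synthetase known from brain and muscle, was the member with the largest muscle difference, and the 1 member past a fold change of 1.3 in each diet (3.46% of all tested genes in HFD and 2.52% in LFD mice).

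*Acsl6* had signals of 436, 479.8 and 526 in HFD gastrocnemius against 255, 373 and 439 in HFD quadriceps, and 436, 509.8 and 591 in LFD gastrocnemius against 329, 392 and 425 in LFD quadriceps. In LFD mice the muscles did not overlap (0.201% of tested genes were higher with no overlap), and in HFD mice they met at the edge. The gastrocnemius was higher in 10 of 10 mice on each diet. The log2 fold change was 0.40 ± 0.070 (SE, limma FDR 0.000779) in HFD and 0.39 ± 0.056 (SE, limma FDR 0.000202) in LFD mice, and both calls passed under leaving out each mouse and under the mouse as a block.

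*Acad11* went the other way. Its signals were 401, 485 and 550.3 in HFD gastrocnemius against 491, 542 and 605 in HFD quadriceps, and 412, 467 and 509 in LFD gastrocnemius against 448, 541 and 616 in LFD quadriceps. The ranges overlapped on both diets, and the gastrocnemius was lower in 10 of 10 HFD and 9 of 10 LFD mice. The log2 fold change was -0.17 ± 0.051 (SE, limma FDR 0.0451) in HFD and -0.22 ± 0.057 (SE, limma FDR 0.0269) in LFD mice. The call was lost on leaving out 7 of 10 HFD and 6 of 10 LFD mice in turn, and in HFD mice with the mouse as a fixed block (limma FDR 0.0817). Without the quadriceps arrays over a neutrophil sum of 100 it was lost on both diets (limma FDR 0.272 in HFD and 0.136 in LFD mice). In HFD mice it was lost under 6 of 11 settings in all, which also include no filter, repeated quantile normalization, array weights and leaving out the arrays under a slow fiber sum of 1000, and in LFD mice under 1 of 11.

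In HFD mice *Acadm* and *Acot2* were also called higher in the gastrocnemius. *Acadm* had signals of 2951, 3175 and 3292 in HFD gastrocnemius and 2538, 2762 and 3125 in HFD quadriceps, with the gastrocnemius above the quadriceps in 9 of 10 mice. Its log2 fold change was 0.17 ± 0.042 (SE, limma FDR 0.0141) in HFD mice and 0.074 ± 0.045 (SE, limma FDR 0.418) in LFD mice. *Acot2* had signals of 155, 178 and 225 in HFD gastrocnemius and 121, 147 and 184 in HFD quadriceps, with a log2 fold change of 0.26 ± 0.075 (SE, limma FDR 0.0398). The groups overlapped for both genes. The call of *Acadm* was lost without mouse 143 or 151, with the mouse as a fixed block (limma FDR 0.0680) and without the quadriceps arrays under a slow fiber sum of 1000 (0.0582), and that of *Acot2* on leaving out 7 of the 10 mice in turn, with no filter, with array weights and without the quadriceps arrays over a neutrophil sum of 100 (limma FDR 0.143) or under a slow fiber sum of 1000 (0.132). With the mouse as a fixed block, 2 members were called in HFD mice, where 6.31% of all tested genes were, and 4 in LFD mice, where 10.7% were. *Cpt2* (log2 fold change -0.21, limma FDR 0.0206) and *Ehhadh* (-0.25, limma FDR 0.0400), both lower in the gastrocnemius, joined the LFD calls. As a random block, the mouse gave 5 calls in LFD mice, where 14.2% of all tested genes were called, with *Cpt2* (limma FDR 0.0113), *Ehhadh* (0.0404) and *Acad9* (log2 fold change -0.19, limma FDR 0.0402, against 0.133 without the block). All other members had log2 fold changes between -0.32 and 0.17 in HFD and between -0.26 and 0.13 in LFD mice.

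**Figure D4:**
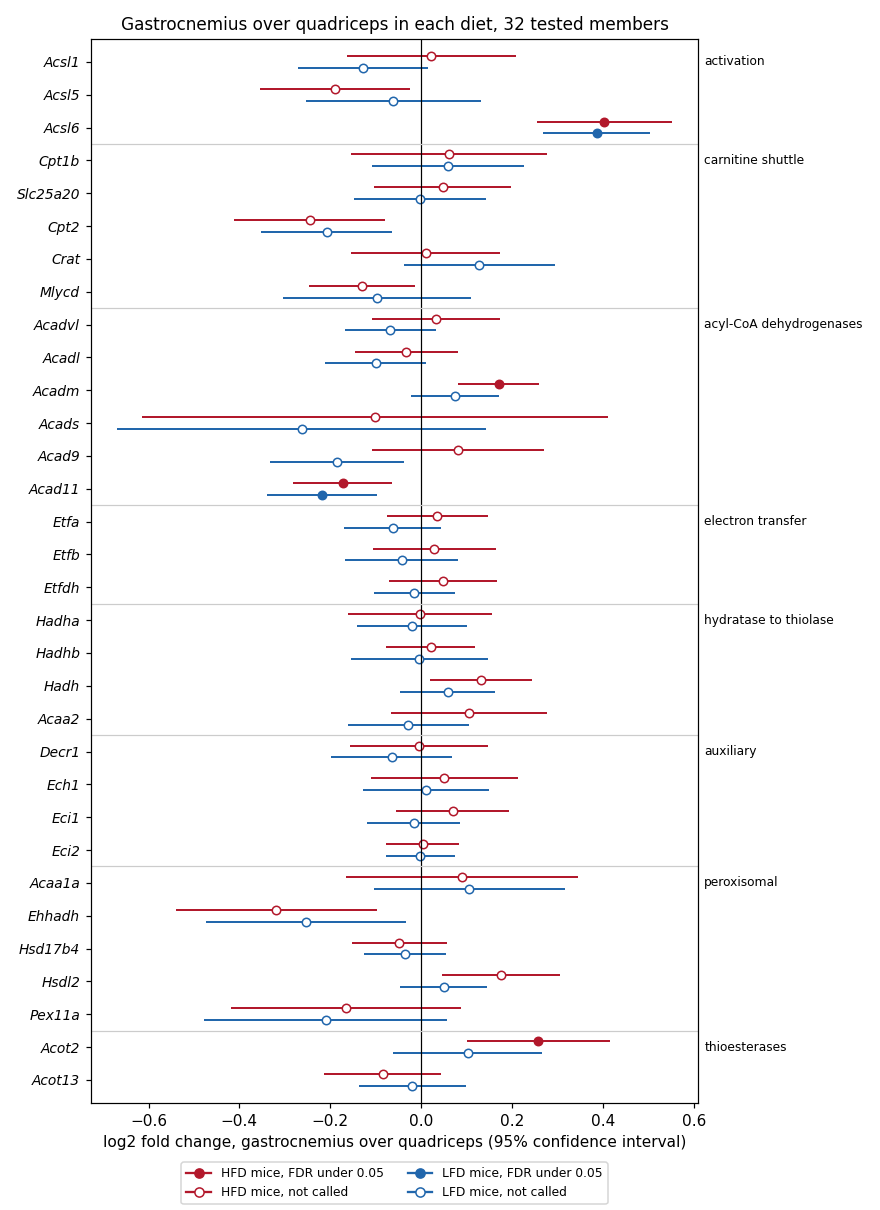
Log2 fold change, gastrocnemius over quadriceps (horizontal axis), with the 95% confidence interval for the 32 tested members by role, in HFD mice (upper point of each pair) and LFD mice (lower point); filled points have an FDR under 0.05. Most members lie near 0, Acsl6 lies right of 0 on both diets (0.40 in HFD and 0.39 in LFD mice) and Acad11 left of 0 (-0.17 and -0.22).

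Other genes of lipid use were taken from lists on related pathways. Of 34 further genes of fatty acid oxidation, 25 were tested, and 1 was higher on the HFD in the gastrocnemius and 0 in the quadriceps: *Acat1*, the mitochondrial acetoacetyl-CoA thiolase (log2 fold change 0.18 ± 0.044 SE, limma FDR 0.04995). Of 18 genes of the PPAR and PGC-1 system and fuel switch targets, 14 were tested, and *Cd36* and *Plin5* were higher in both muscles. In the quadriceps both calls were lost with that muscle's 20 arrays alone (limma FDR 0.136 and 0.264) and without the arrays over a neutrophil sum of 100 (0.999 for both). *Cd36*, a fatty acid transporter, had log2 fold changes of 0.38 ± 0.063 (SE, limma FDR 0.000420) in the gastrocnemius and 0.31 ± 0.063 (FDR 0.0163) in the quadriceps. *Plin5*, a lipid droplet protein of oxidative tissues, had 0.76 ± 0.13 (limma FDR 0.000420) and 0.56 ± 0.13 (FDR 0.0387) in the same muscles. *Pdk4*, a kinase that limits glucose use in fasted muscle, is named for its known role and not for its FDR. It was not called, at a log2 fold change of -0.027 (gastrocnemius) and -0.071 (quadriceps). None of the 19 citric acid cycle genes was called in either muscle, and their median log2 fold change was 0.041 (gastrocnemius) and 0.0018 (quadriceps, limma).

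Between the muscles, *Ppargc1a*, the coactivator PGC-1alpha, was higher in the gastrocnemius by a log2 fold change of 0.98 ± 0.18 in HFD (SE, limma FDR 0.00139) and 0.61 ± 0.17 in LFD mice (FDR 0.0429), and *Esrrg*, a nuclear receptor of oxidative tissues, by 0.80 ± 0.14 in HFD (limma FDR 0.000872) and 0.64 ± 0.14 in LFD mice (FDR 0.00927). Of 8 slow fiber markers, 7 were higher in the gastrocnemius in HFD and 6 in LFD mice, with median log2 fold changes of 2.67 in HFD and 2.47 in LFD mice. *Acot7*, a thioesterase best known from brain, was higher in the gastrocnemius on both diets (0.45 in HFD and 0.38 in LFD mice), and in HFD mice *Acadsb*, the dehydrogenase of short branched chains, was lower (-0.28, limma FDR 0.000526), as was *Pex7*, a peroxisomal import receptor (-0.16, limma FDR 0.0400). *Idh2*, a mitochondrial isocitrate dehydrogenase, was the 1 citric acid cycle gene called, higher in HFD gastrocnemius (0.51, limma FDR 0.00331). Of 6 adipocyte markers, 1 was lower in the gastrocnemius in HFD and 3 in LFD mice, and of 5 tested neutrophil markers 3 were lower in HFD and 0 in LFD mice. The part of these cells in the muscle differences of the members was not tested. Without the quadriceps arrays over a neutrophil sum of 100, 6 members were called in HFD mice, where 4.26% of all tested genes were, and 2 in LFD mice, where 3.47% were. In HFD mice *Acaa2*, *Eci1*, *Hadh* and *Hsdl2* were then called and *Acad11* and *Acot2* were not, and in LFD mice *Acad9* was called and *Acad11* was not. The members' median log2 fold change was then 0.13 in HFD and 0.015 in LFD mice. It changed sign in LFD mice under this setting, and in HFD mice without the quadriceps arrays under a slow fiber sum of 1000 (-0.013) and without mouse 151 (-0.0057).

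**Figure D5:**
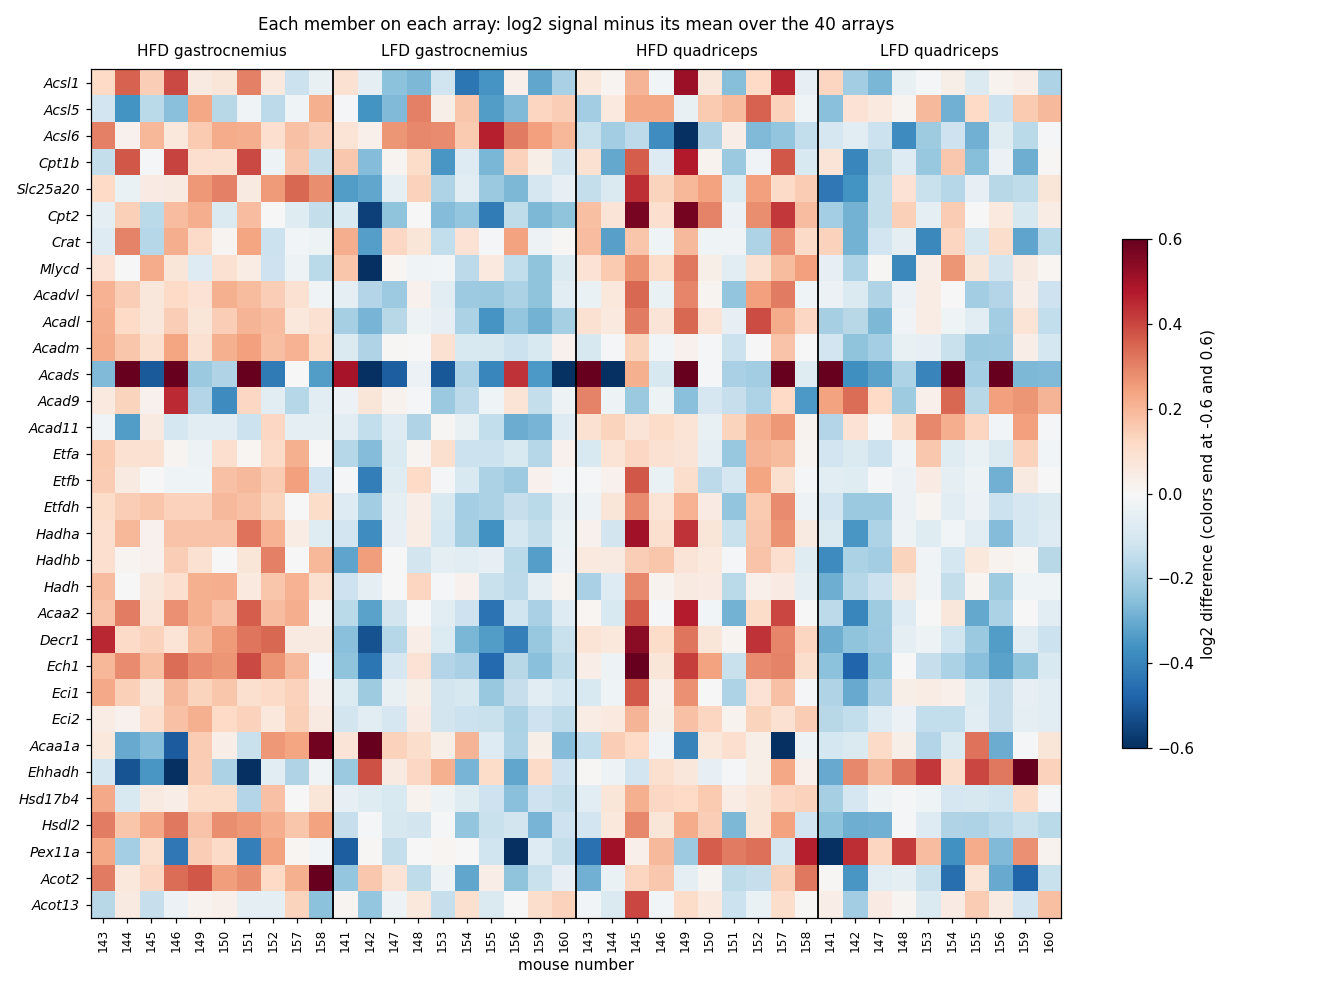
Log2 signal of each of the 32 tested members (rows, by role) on each of the 40 arrays (columns, by group and mouse number) minus its mean over all arrays; red is higher, blue lower, and colors end at -0.6 and 0.6. Most rows from Acadvl to Eci2 are red in HFD gastrocnemius and blue in LFD gastrocnemius, the HFD quadriceps columns differ most between mice, and the Acads row has the strongest differences within each group.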

How the data were processed

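The authors made linear signal intensities from the Affymetrix arrays by GC-RMA (GCRMA, per the labels, version unknown here) and deposited them, with 1 value for each of 16539 probe sets and no replicates pooled. GC-RMA fits all arrays together and shrinks low signals, so that fold changes of dim genes are compressed. Here 64 control probe sets were left out, log2 of the intensity was taken, and the 6479 of 16475 probe sets (39.3%) with a mean over 20 were tested with limma 3.58.1 in R 4.3.3, with Benjamini-Hochberg adjustment (FDR) over all tested probe sets and an FDR under 0.05 as the call. Tables and figures were made in Python 3.11.15 with pandas 2.3.3, numpy 2.4.6 and matplotlib 3.10.9.

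Muscles were compared within each diet on its 20 arrays, and diets and the interaction in 1 fit of 4 groups on all 40 arrays. Mouse numbers in the labels mark both muscles of 1 animal. The main fits took them as separate samples, and fits with the mouse as a block were alternatives. Deviations from group means correlated within mice at a median of -0.069 (-0.21 to 0.43) in HFD and 0.39 (-0.07 to 0.63) in LFD mice. The code was tested on simulated data drawn independently for each array, so without a correlation within mice. A minimum of recovered changes was required there only for the comparisons of muscles. No 2 arrays were identical (array correlations 0.985 to 0.9966), median intensities were 8.8 to 9.4, and scan batches were not analysed here. The number of arrays limits the precision.

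Members and lists were chosen with earlier results of these data known. Values of all arrays are given for members called in any comparison (for the 20 with the smallest FDR, if more), others by group means or ranges, and from other lists up to 4 genes with the smallest FDR in each comparison. Alternatives were the filter, a constant added before log2, repeated quantile normalization, array weights, the blocks, the 20 arrays of 1 muscle, arithmetic means and leaving out each mouse. Added after seeing the data were the mean of both muscles of a mouse and leaving out quadriceps arrays with a neutrophil marker sum over 100 or a slow fiber marker sum under 1000. The extraction protocol in the labels names the quadriceps also for gastrocnemius samples, so that groups follow the tissue label.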

Additional observations from a re-analysis of the deposited data

Results flagged for a closer look

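In 9 of 128 groups of 10 arrays (32 members in 4 groups), 1 array stood apart from the other 9 by Dixon's criterion, which chance meets in about 1 of 20 groups. In HFD gastrocnemius these were the lowest arrays of *Ech1* (4198, mouse 158, next 4792) and *Etfdh* (2121, mouse 157, next 2284). In LFD gastrocnemius they were the highest arrays of *Eci2* (649, mouse 148, next 599.6) and *Acaa1a* (61.2, mouse 142, next 41.3) and the lowest of *Mlycd* (172, mouse 142, next 258). In HFD quadriceps they were the highest arrays of *Hadh* (4294, mouse 145, next 3658) and *Acot13* (1724, mouse 145, next 1413), the array with the highest neutrophil marker sum, and the lowest of *Acsl6* (255, mouse 149, next 330.1). In LFD quadriceps it was the lowest array of *Etfb* (1231, mouse 156, next 1432). For *Ech1*, *Etfdh* and *Eci2*, called as higher on the HFD in the gastrocnemius, the array that stood apart was the one, or one of those, through which the groups overlapped.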

How the results depend on the processing

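The count of 14 members higher on the HFD in the gastrocnemius stayed within 1.5 times under every alternative run, and no called member changed direction. The share of all genes called there was 0.188% (no filter) to 2.65% (array weights). Leaving out quadriceps arrays kept every gastrocnemius array, so that only the shared spread could move there. In the quadriceps the count of 5 was 2 with the 20 quadriceps arrays alone, where 0.0463% of all tested genes were called. It was 0 without the arrays of high neutrophil markers (0% of all tested genes) and 16 for the mean of both muscles (0.525%). On leaving out each mouse it was 4 to 8 (0.108% to 0.324%), with 8 without mouse 151 (0.309%). The 1 member past a fold of 1.3 there became 2 after repeated quantile normalization, from arithmetic means and without the arrays of low slow fiber markers, 0 with array weights, with that muscle's arrays alone and without the arrays of high neutrophil markers, and 0 to 2 on leaving out each mouse. The mean of both muscles, which is not a comparison of the quadriceps alone, called 16 members, with 2 past a fold of 1.3. Between muscles in HFD mice, the 4 calls were 2 with no filter, where 3.15% of all genes were called. They were 2 with the mouse as a fixed block (6.31%) and 2 without the arrays of low slow fiber markers (5.03%). On leaving out each mouse they were 1 to 5 (4.99% to 6.78%), with 2 or fewer without 143, 146, 151 or 157. The 1 past a fold of 1.3 was 0 without the arrays of high neutrophil markers and 0 to 1 on leaving out each mouse. In LFD mice, the 2 calls were 4 with array weights, where the share of all tested genes called also rose, to 11.7%. They were 4 with the mouse as a fixed block (10.7%) and 5 as a random block (14.2%). On leaving out each mouse they were 1 to 3 (3.1% to 7.19%), with 1 without 142, 148, 154, 155, 156 or 159. The 1 past a fold of 1.3 was 0 with log2(value + 20), 0 without the arrays of high neutrophil markers and 0 to 1 on leaving out each mouse. With the mouse as a random block in the diet comparisons, 13 members were called in the gastrocnemius, where 0.648% of all tested genes were. In the quadriceps 5 were, where 0.216% of all tested genes were.

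Over all tested genes, the 44 calls of diet in the gastrocnemius were 172 with array weights. The 12 in the quadriceps were 3 with that muscle's arrays alone and 0 without the arrays of high neutrophil markers. The mean of both muscles called 34 genes. Between muscles, the 338 calls in LFD mice were 759 with array weights, 917 and 694 with the mouse as a random and a fixed block, 225 without the arrays of high neutrophil markers and 218 without those of low slow fiber markers, and the 429 in HFD mice were 276 without the arrays of high neutrophil markers. On leaving out each mouse, calls moved by over 1.5 times without mouse 147 in LFD muscles (201), without 154 (28) or 155 (29) for diet in the gastrocnemius, and without 144 (21), 145 (7), 150 (7) or 151 (20) for diet in the quadriceps. The causes were not tested, beyond the fewer arrays where arrays were left out. Low signals limit *Cpt1a*, *Acad10*, *Decr2* and *Acot1*, which were not tested.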
